A study of Mus musculus with 4 samples.

Results

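The promoters of collagen and elastic fibre genes were examined in H3K9me2 ChIP-seq data from male C57Bl/6J mice, taken from the medial layer of the aorta. The members were every listed collagen chain, fibrillin, fibulin, EMILIN and latent TGF-beta binding protein, together with Eln, Fn1, Lox, Loxl1, Loxl2, Mfap4, Mfap5, Bgn, Dcn and Lum. They were chosen by gene symbol, with earlier results of these data known. Of the 26354 promoters of the table, 66 were members, 43 of them collagens. Loxl2 and Bgn met the rule but have no row in the table used here. Of the 66 members, 31 were medial matrix genes, 8 were collagens of cartilage, 8 were collagens of skin and epithelia, and 19 were other members.

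The aortas carried no genetic or other modification that the labels name, and the ages of the mice are not given in the sources used here. The adventitial and endothelial layers had been stripped off by hand and the remaining tissue was fixed without culture. The 2 independent experiments, v102 and v134, gave 1 ChIP library each, paired with 1 library of input, the chromatin before immunoprecipitation. The sources used here do not say how many animals each library pooled. The labelled cell type is vascular smooth muscle cells (VSMCs), which cannot be checked by expression in chromatin data.

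Dimethylation of lysine 9 of histone H3 (H3K9me2) is placed largely by the methyltransferases G9a and GLP and is associated with repressed or inducible genes. The wall of a large artery owes its stretch and strength to elastic lamellae, built of elastin on a scaffold of fibrillin microfibrils, and to fibrillar collagens between them. VSMCs deposit most of this matrix, lysyl oxidases crosslink it, and other collagens are typical of cartilage, skin or epithelial basement membranes instead.

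To show how far the base composition of these promoters ranges, the 150 bases before the annotated start of 5 medial matrix genes follow, read 5′ to 3′ on the gene's strand, with each CG dinucleotide in capitals. Mfap5 and Fbn1 had the highest H3K9me2/input ratios among the members, Col3a1 and Col1a1 are major fibrillar collagens of the wall, and Col5a1 was among the lowest. In GRCm38.p6 with GENCODE starts they lie at chr6:122505695-122505844 (Mfap5, plus strand), chr2:125507994-125508143 (Fbn1, minus strand), chr1:45311388-45311537 (Col3a1, plus strand), chr11:94936074-94936223 (Col1a1, plus strand) and chr2:27886275-27886424 (Col5a1, plus strand). None overlaps an annotated exon.
Mfap5: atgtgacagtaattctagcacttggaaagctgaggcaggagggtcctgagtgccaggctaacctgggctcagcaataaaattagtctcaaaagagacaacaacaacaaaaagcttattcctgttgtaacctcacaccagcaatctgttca
Fbn1: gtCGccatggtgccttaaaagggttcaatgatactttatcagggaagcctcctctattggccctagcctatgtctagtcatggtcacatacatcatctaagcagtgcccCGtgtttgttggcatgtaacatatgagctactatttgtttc
Col3a1: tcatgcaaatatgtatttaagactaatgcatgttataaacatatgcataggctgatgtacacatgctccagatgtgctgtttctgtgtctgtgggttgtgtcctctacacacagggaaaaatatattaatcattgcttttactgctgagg
Col1a1: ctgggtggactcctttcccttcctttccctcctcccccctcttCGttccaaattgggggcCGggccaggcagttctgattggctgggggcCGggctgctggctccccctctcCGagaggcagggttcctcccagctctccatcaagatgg
Col5a1: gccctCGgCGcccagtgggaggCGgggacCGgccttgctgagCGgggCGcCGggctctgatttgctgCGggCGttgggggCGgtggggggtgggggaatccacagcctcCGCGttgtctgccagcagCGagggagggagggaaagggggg
These stretches held 0 CG dinucleotides in Mfap5 and Col3a1, 2 in Fbn1, 4 in Col1a1 and 13 in Col5a1. Their GC content ran from 37.3% in Col3a1 to 74.7% in Col5a1.

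Reads had been counted within ±1 kb of each transcription start site (TSS), and over all promoters the ChIP libraries held 162233 (v102) and 229605 (v134) reads, against 619100 and 1084349 for the inputs. The deposited H3K9me2/input ratio is summed ChIP reads over summed input reads, without scaling for library size, and its median over all promoters was 0.162, with quartiles at 0.0780 and 0.343. Of 6 smooth muscle markers, Smtn had a ratio of 0.613 and the other 5, Myh11, Acta2, Tagln, Cnn1 and Lmod1, had ratios of 0 to 0.0833. Of the markers of other cell types, endothelial Pecam1, Cdh5 and Tek had ratios of 0.0685 to 0.352, leukocyte Cd68, Cd3e and Ptprc 0.0769 to 0.730, and adventitial Pdgfra and Ly6a 0.0217 and 0.350. A low signal from fewer cells carrying the mark and one from less mark per cell cannot be told apart in these bulk libraries.

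At no member promoter did H3K9me2 pass the test above input, while 15 of the 66 were below it. The 15 were fibronectin, the crosslinking enzymes Lox and Loxl1, Emilin1, Ltbp3, Ltbp4 and 9 collagens, among them Col1a1, Col4a1, Col4a2, Col5a1, Col6a1 and Col6a2. By edgeR's quasi-likelihood test on the reads of both experiments, with Benjamini-Hochberg adjustment over all 26354 promoters at 0.05, the 0 members above input compare with 18.6% of all promoters. The 15 below input (22.7%) compare with 17.0% of all promoters. At an unadjusted p under 0.05, 23 members passed (34.8%, against 46.2% of all promoters), 22 of them below input (33.3%, against 24.8%). A fit with the experiment as a block left 6 members below, which at 9.09% is near the 8.3% of all promoters, and 0 above, against 15.8%. The 6 were Col13a1, Col4a2, Col5a1, Emilin1, Fn1 and Loxl1. DESeq2 gave 0 in either direction, against 11.5% of all promoters above and 0.11% below, but for 61 members its adjusted p was undefined. At an unadjusted p under 0.05 by DESeq2, 8 members passed (12.1%, against 24.6% of all promoters), all below input (against 9.47%). Among the 39 members with at least 20 reads in each input, Mfap5 was above (2.56%, against 17.5% of all promoters at that depth) and 4 were below (10.3%, against 12.0%). The shortage of promoters above input thus held in these edgeR fits. At the adjusted threshold, the larger share below input did not hold with the block or the depth limit. At an unadjusted p under 0.05 by edgeR, the members below input were 27.3% with the block (against 19.5%). With the depth limit they were 25.6% (against 20.4%). DESeq2 could not decide either, because most of its adjusted p at the members were undefined.

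Read numbers behind these values were small. The members had 0 to 9 ChIP reads in v102 and 0 to 18 in v134, with medians of 2 and 3, against medians of 4 and 5 over all promoters. Input reads at the members, with medians of 20 and 34.5, were close to the 20 and 37 of all promoters. The lower ratios of the members thus lay in the ChIP reads rather than in the input reads. Pooled over the 66 members, ChIP reads per input read were 0.561 (95% Wilson interval 0.483 to 0.652) of the value for all promoters in v102 and 0.503 (0.442 to 0.573) in v134. Here and below, intervals and limits account for counting error alone, because the reads carry no molecular identifiers and may repeat a molecule. Pooled values count reads in overlapping windows for each gene, and their intervals leave out the spread between promoters, so they are too narrow.

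**Figure D1:**
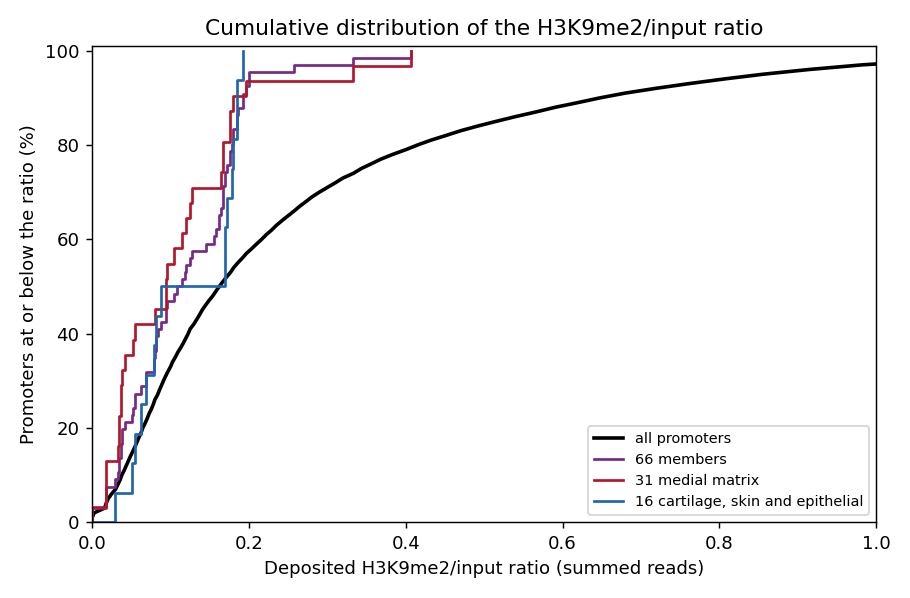
Cumulative distribution of the deposited H3K9me2/input ratio (x axis, summed ChIP over summed input reads) as the percentage of promoters at or below each ratio (y axis), for all 26354 promoters (black), the 66 members (purple), the 31 medial matrix genes (red) and the 16 cartilage, skin and epithelial collagens (blue). The members stop at 0.407, while 6591 of all promoters lie at or above 0.343.

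The cumulative plot of the deposited ratio shows where the members differ from the table. Their median ratio was 0.112, and 43 of 66 lay below the median of all promoters. At the upper end, 1 member (1.52%) lay in the top quartile of the table, whereas 21 (31.8%) lay in the bottom quartile. For 51 members (77.3%) the upper Wilson limit of the ratio was below the table's 75th percentile, compared with 52.9% of all promoters. Limits wholly below the table's median were found for 13 members (19.7%), compared with 16.2% of all promoters, and limits wholly above it for 2 (3.03%), compared with 31.0%. Relative to the table, the collagen and elastic fibre genes thus lacked high ratios more than they gained very low ones.

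The core proteins of the elastic fibre spanned nearly the whole range of the members. Elastin itself, encoded by Eln, had 1 and 0 ChIP reads in v102 and v134 over 8 and 22 input reads, a ratio of 0.0333 (95% interval 0.00575 to 0.193). Its log2 fold change over input was -2.53 ± 1.17 (SE), which did not pass the test (edgeR adjusted p = 0.0761), and its inputs were among the shallowest of the members. Fibrillin-1, the main subunit of the microfibrils, stood at the other end: Fbn1 had 7 and 13 ChIP reads over 20 and 40 input reads, a ratio of 0.333 (0.202 to 0.550). Mfap5, a glycoprotein that binds fibrillin microfibrils, had 6 and 18 ChIP reads over 22 and 37 input reads. Its ratio of 0.407 (0.254 to 0.651) was the highest of the 66.

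Both microfibril genes were above the table's median in both experiments, and neither passed the test over all promoters. The log2 fold change was 0.68 ± 0.46 (SE) for Fbn1 (edgeR adjusted p = 0.237) and 0.94 ± 0.44 for Mfap5 (edgeR adjusted p = 0.0779). The annotated start of Fbn1 differs by 1555 bases between GENCODE and RefSeq, so the counted window may have been centred elsewhere than the sequence shown. Mfap4, which associates with elastic fibres, had 1 and 4 ChIP reads over 22 and 31 input reads (log2 fold change -1.15 ± 0.71, edgeR adjusted p = 0.189). Fbn2, the fibrillin best known from developing tissue, had 2 and 1 over 15 and 21.

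The assembly proteins of the elastic fibre, the fibulins, EMILINs and latent TGF-beta binding proteins, had a median ratio of 0.119. Of their 13 promoters 3 were below input (23.1%, near the 17.0% of all promoters). Emilin1, an elastin-binding glycoprotein of the vessel wall, had no ChIP read in either experiment over 29 and 39 input reads. If a count of 0 is taken to allow 3 reads over both libraries, and the input reads as exact, the ratio is 0.0441. That is 3.68-fold lower than the median of all promoters. The upper Wilson limit, which counts error in the input too, was higher at 0.0565 (edgeR adjusted p = 0.000139). Ltbp3 and Ltbp4, which bind latent TGF-beta, were also below input but differed in which experiment had the reads. Ltbp3 had 0 and 7 ChIP reads over 28 and 60 input reads, and Ltbp4 had 3 and 0 over 20 and 38. Both lost their calls with the experiment as a block (edgeR adjusted p = 0.107 and 0.119). Ltbp1 and Ltbp2 did not pass the test, with ratios of 0.119 and 0.176.

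Among the fibulins, none passed the test. Fbln5 and Efemp2, which are both needed to assemble elastic fibres, had 1 and 4 ChIP reads over 24 and 29 input reads and 2 and 10 over 20 and 47. Fbln1 had 8 ChIP reads over 14 input reads in v102 but 1 over 32 in v134, so its log2 ratio was far above the table's median in the former and -1.80 in the latter. Fbln7 showed the same spread, with 7 ChIP reads in v102 and 0 in v134. The remaining members of this group, Fbln2, Efemp1, Emilin2 and Emilin3, had ratios of 0.0682 to 0.192.

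Both crosslinking enzymes with a row were below input. Lox, which oxidises lysines of elastin and collagen, had 0 and 2 ChIP reads over 20 and 33 input reads (log2 fold change -2.42 ± 0.91, edgeR adjusted p = 0.0262). Loxl1, its relative tied to elastic fibre upkeep, had 0 and 1 over 17 and 39 (log2 fold change -3.42 ± 1.06, edgeR adjusted p = 0.00660). With the experiment number as a block Loxl1 kept its call (edgeR adjusted p = 0.0336) and Lox did not (edgeR adjusted p = 0.0770).

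Fibronectin had the most input reads of the members below input. Fn1, which encodes this cell-adhesive glycoprotein, had 1 and 3 ChIP reads over 29 and 68 input reads, a ratio of 0.0412 (0.0158 to 0.108). Its log2 fold change was -2.29 ± 0.65 (edgeR adjusted p = 0.00297), and its log2 ratios of -1.97 and -1.87 in the separate experiments were nearly equal. The Fn1 window overlaps that of Apol7d, so the reads are shared. The small proteoglycans decorin and lumican, which regulate collagen fibril diameter, did not pass the test: Dcn had 6 and 3 ChIP reads over 25 and 47 input reads, and Lum 8 and 12 over 30 and 84. Their starts lie 85519 bases apart on chromosome 10.

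**Figure D2:**
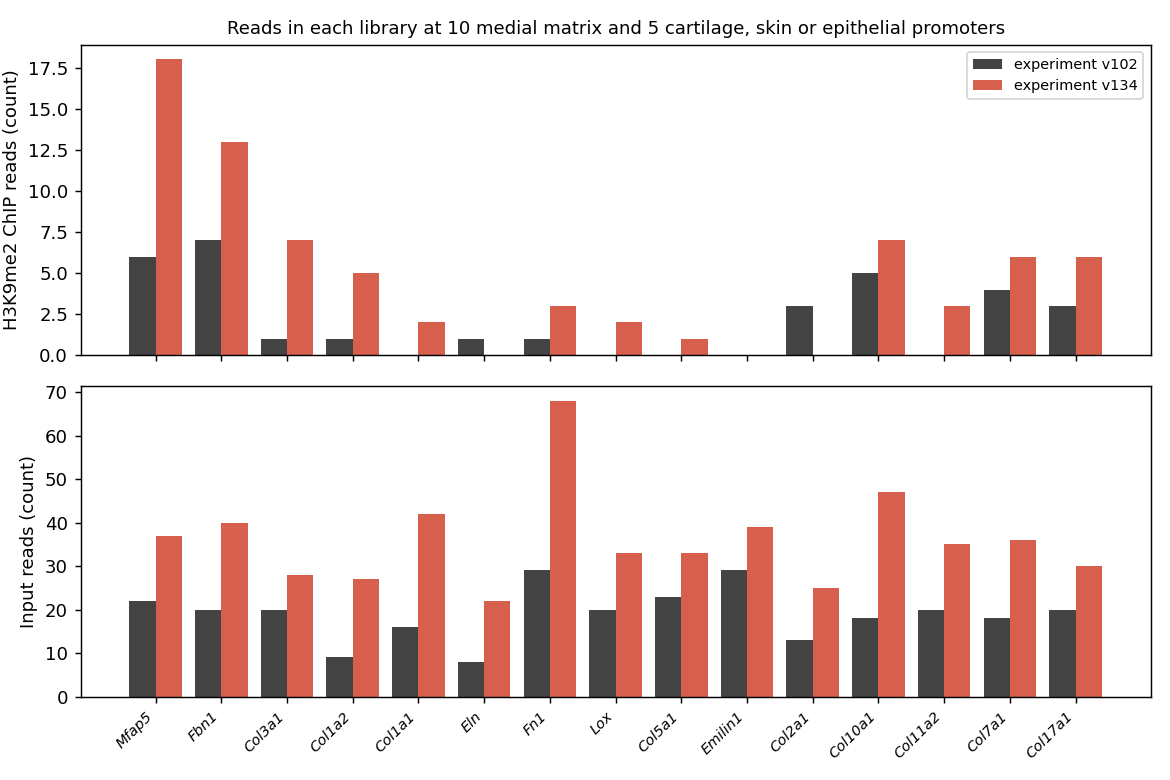
Reads in each library (y axes, counts) at 10 medial matrix and 5 cartilage, skin or epithelial promoters (x axis), with H3K9me2 ChIP reads above and input reads below, for experiments v102 (grey) and v134 (red). Mfap5 and Fbn1 have 6 to 18 ChIP reads, whereas Col1a1, Eln, Lox, Col5a1 and Emilin1 have 0 to 2 in each experiment over 8 to 42 input reads.

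Of the 5 fibrillar collagens of the medial layer, Col1a1 and Col5a1 were below input and Col1a2, Col3a1 and Col5a2 did not pass the test, and the Wilson intervals of these 5 overlapped. Col1a1 and Col1a2 encode the chains of type I collagen. Col1a1 had 0 and 2 ChIP reads over 16 and 42 input reads (log2 fold change -2.52 ± 0.89, edgeR adjusted p = 0.0180), while Col1a2 had 1 and 5 over 9 and 27 (log2 fold change -0.30 ± 0.72, edgeR adjusted p = 0.758). Their Wilson intervals were 0.00927 to 0.128 and 0.0720 to 0.386, and the difference between the genes was not tested. Col1a1 lost its call with the experiment number as a block (edgeR adjusted p = 0.0627).

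Type III and type V collagen form fibrils together with type I. Col3a1 had 1 and 7 ChIP reads over 20 and 28 input reads (log2 fold change -0.34 ± 0.63, edgeR adjusted p = 0.692), with a log2 ratio of -1.46 in v102 and 0.38 in v134. Its neighbour Col5a2, 191744 bases away on chromosome 1, had 0 and 8 over 26 and 58. Both of these had a higher log2 ratio in v134 than in v102. Col5a1, by contrast, was low in both, with 0 and 1 ChIP reads over 23 and 33 input reads (log2 fold change -3.45 ± 1.05, edgeR adjusted p = 0.00591), and its window overlaps that of 2810430I11Rik.

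Several collagen genes of basement membranes and beaded filaments lie as pairs that share a promoter or a chromosomal neighbourhood. Col4a1 and Col4a2, which encode the chains of the most widespread type IV collagen, have starts 21 bases apart on chromosome 8 and are read in opposite directions. They had 1 and 1, and 1 and 0, ChIP reads over the same 20 and 38 input reads, and both were below input (log2 fold changes of -2.54 ± 0.89 and -3.48 ± 1.05, edgeR adjusted p of 0.0170 and 0.00516). Because their windows hold almost the same reads they are 1 observation rather than a pair, and with such a pair counted once 14 windows were below input. With the experiment number as a block Col4a2 kept its call (edgeR adjusted p = 0.0316) and Col4a1 did not (edgeR adjusted p = 0.0536).

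The type IV chains of specialised basement membranes gave a mixed picture. Col4a3 and Col4a4, chains of the kidney filter, start 72 bases apart on chromosome 1 and had identical reads of 5 and 4 over 20 and 33 input reads (log2 fold change -0.29 ± 0.60, edgeR adjusted p = 0.719 for each). Col4a5 and Col4a6 start 1309 bases apart on chromosome X. Col4a5 had 0 and 1 ChIP reads over 13 and 21 input reads (log2 fold change -2.72 ± 1.15, edgeR adjusted p = 0.0510) and Col4a6 had 1 and 2 over 12 and 25 (-1.33 ± 0.86, edgeR adjusted p = 0.213). The 2 pairs differed in ratio, 0.170 against 0.0294 and 0.0811, with overlapping intervals.

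Type VI collagen forms beaded filaments around cells. Col6a1 and Col6a2, 102538 bases apart on chromosome 10 with windows that do not overlap, had the same ratio of 0.0364, each with 1 and 1 ChIP reads, over 20 and 35 and over 22 and 33 input reads. Both were below input (edgeR adjusted p = 0.0223 and 0.0217), and both lost the call with the experiment as a block (edgeR adjusted p = 0.0617 and 0.0592). Col6a3, on another chromosome, had 4 and 3 over 21 and 40 and did not pass the test. The later type VI chains lie in a row on chromosome 9, and of these Col6a5 was below input (edgeR adjusted p = 0.0462, or 0.0895 with the block) while Col6a4 and Col6a6 had ratios of 0.0811 and 0.161. Other medial network collagens, Col8a1, Col15a1 and Col18a1, had ratios of 0.0545 to 0.127, with none past the test.

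The collagens of cartilage had none of 8 promoters below input, against 17.0% of all promoters, a list too short to tell these shares apart. The sizes of their changes varied. Col2a1, the main fibrillar collagen of cartilage, had 3 ChIP reads over 13 input reads in v102 and 0 over 25 in v134 (log2 fold change -1.36 ± 0.86, edgeR adjusted p = 0.199). Col11a2 went the other way, with 0 over 20 and 3 over 35 (-1.91 ± 0.81, edgeR adjusted p = 0.0510). Col10a1, a collagen of hypertrophic chondrocytes, had 5 and 7 ChIP reads over 18 and 47 input reads (-0.15 ± 0.53, edgeR adjusted p = 0.841). The 3 type IX chains, which coat cartilage fibrils, had ratios of 0.172 to 0.193, all just above the table's median of 0.162. Col11a1 and Col27a1 had 0.0513 and 0.0877.

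Skin and epithelial collagens were near the typical promoter for the anchoring chains. Col7a1, of the anchoring fibrils that tie epidermis to dermis, had 4 and 6 ChIP reads over 18 and 36 input reads (log2 fold change -0.16 ± 0.58, edgeR adjusted p = 0.841). Col17a1, a transmembrane collagen of hemidesmosomes, had 3 and 6 over 20 and 30 (-0.22 ± 0.61, edgeR adjusted p = 0.792). Col23a1, also a transmembrane collagen, was lower, with 1 and 2 over 16 and 28. Col6a5 was the 1 promoter of these 8 below input (12.5%, against 17.0% of all promoters).

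Of the 19 other members, 2 were below input (10.5%, against 17.0% of all promoters). Col13a1, a transmembrane collagen, had 0 ChIP reads over 18 and 30 input reads. With 3 reads allowed as for Emilin1, the ratio is 0.0625, which is 2.59-fold lower than the median of all promoters. The upper Wilson limit was 0.0800 (edgeR adjusted p = 0.00185). Col14a1, a fibril-associated collagen, had 0 and 2 over 21 and 31 (edgeR adjusted p = 0.0281, or 0.0809 with the block). Col22a1, known from muscle-tendon junctions, had 9 and 8 ChIP reads over 28 and 38 input reads, the third highest ratio of all members at 0.258 (0.152 to 0.436). Fibril-associated collagens as a group had the highest median ratio of any collagen group with more than 1 gene, 0.178 over 9 genes.

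**Figure D3:**
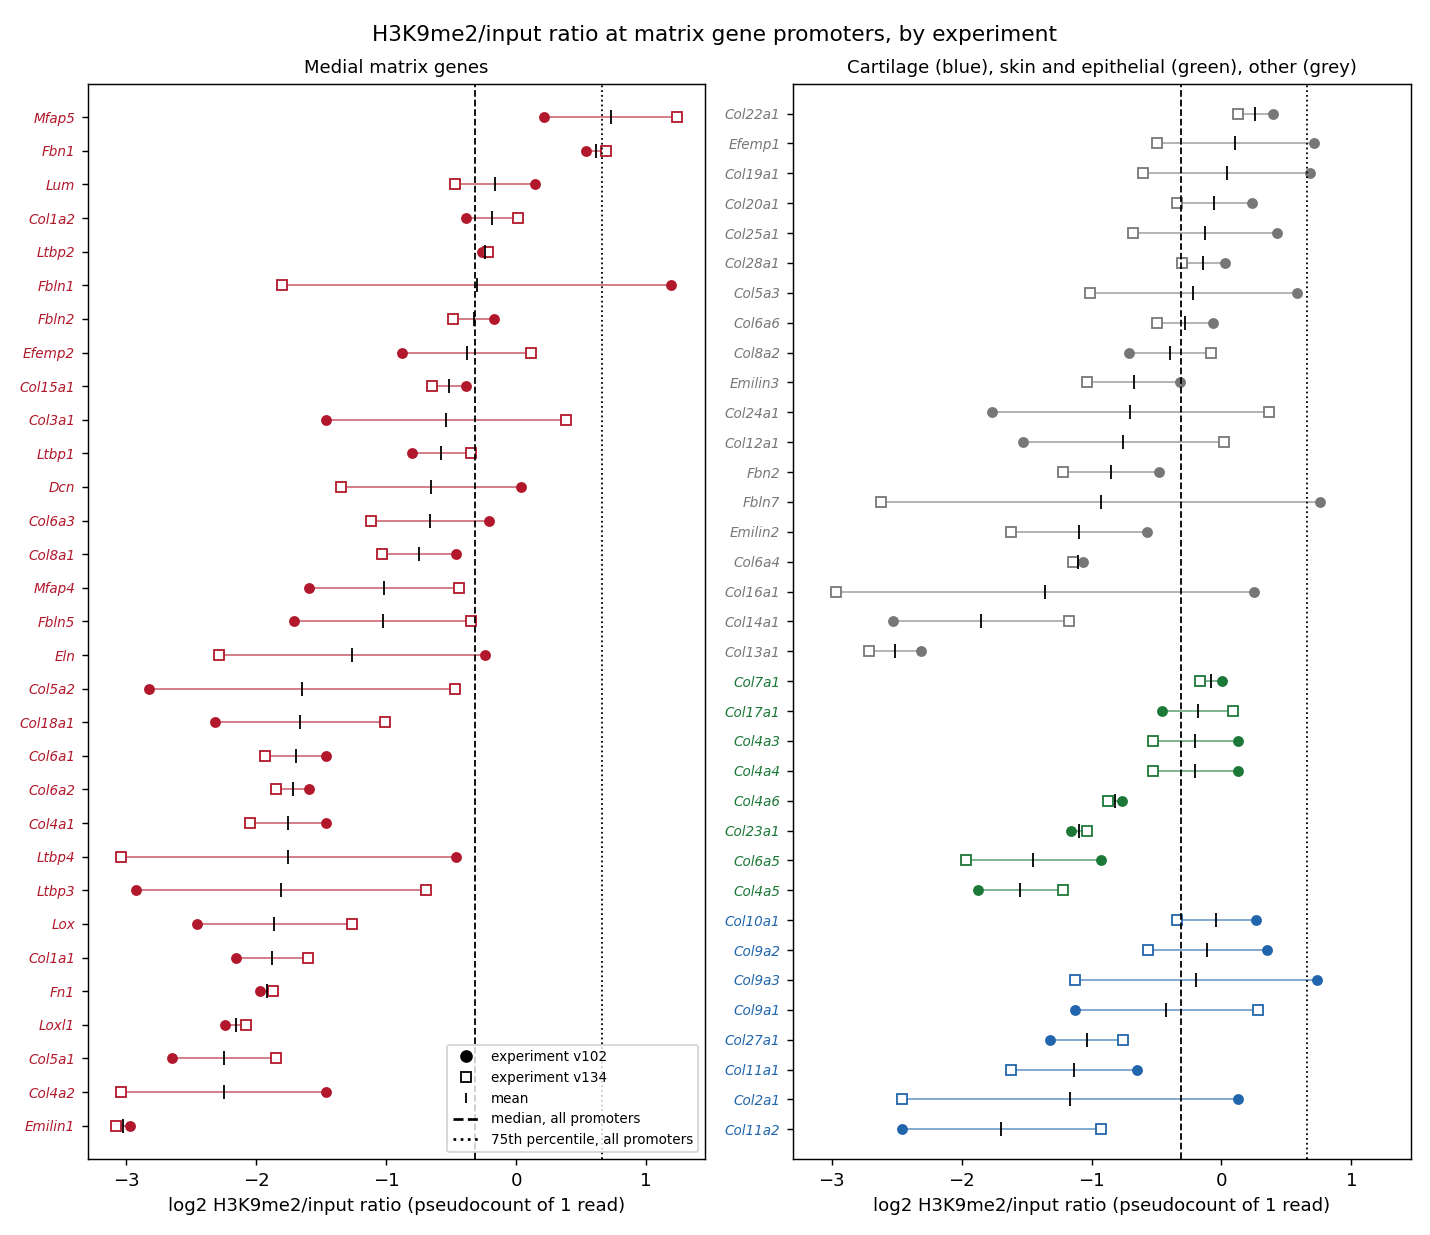
Log2 H3K9me2/input ratio (x axis, pseudocount of 1 read, scaled by library totals) of each member (y axis) in experiment v102 (filled circles) and v134 (open squares), with the mean of both as a tick, for medial matrix genes (red), cartilage collagens (blue), skin and epithelial collagens (green) and other members (grey). Dashed and dotted lines mark the median (-0.31) and the 75th percentile (0.66) of the mean over all promoters, and Mfap5 is the 1 member whose mean lies right of the dotted line.

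Medial matrix promoters were set against the collagens of cartilage, skin and epithelia to ask whether the medial list carried less of the mark. The lists were set by gene name, and which of these genes the sampled cells express was not measured here. They may therefore not separate the matrix of the resident cells from that of other tissues. Among the 31 medial genes 12 were below input (38.7%), compared with 1 of 16 in the other lists (6.25%) and 17.0% of all promoters, and none was above in either. With the experiment as a block these counts were 5 (16.1%) and 0, against 8.3% of all promoters. The median log2 ratio, taken with a pseudocount of 1 read and averaged over the experiments, was -1.03 for the medial genes, -0.62 for the 16 collagens and -0.31 for all promoters. The difference of the medians of both lists was 0.41, with an SD of 0.49 between the experiments, so it was within their spread. It was 0.90 in v102 and 0.22 in v134. With 2 libraries a group, no permutation over samples can go below p = 0.333, and the lists were not tested against each other. The lists, too, were chosen with earlier results of these data known.

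In the pooled reads the medial list was lower than the other in v102, with overlapping intervals, and level with it in v134. In v102 the medial genes had 0.427 (95% interval 0.336 to 0.543) of the ChIP reads per input read of all promoters, and the cartilage, skin and epithelial collagens 0.621 (0.457 to 0.844). In v134 these values were 0.504 (0.421 to 0.604) and 0.505 (0.383 to 0.667). The shared reads of Col4a3 and Col4a4, and most of those of Col4a1 and Col4a2, enter these sums for both genes. Within the medial list, the 13 collagens were lower, at 0.240 (0.146 to 0.396) and 0.379 (0.273 to 0.527), than the 18 genes of other kinds, at 0.544 (0.413 to 0.715) and 0.584 (0.470 to 0.725). Below input were 6 of the 13 (46.2%) and 6 of the 18 (33.3%), against 17.0% of all promoters. The 6 collagens include both Col4a1 and Col4a2, which share their window. With the experiment as a block, the collagens Col4a2 and Col5a1 and the other genes Emilin1, Fn1 and Loxl1 were left, so these counts no longer set the collagens apart. Fbn1 and Mfap5 together held 13 of the 58 ChIP reads of those 18 promoters in v102 and 31 of 92 in v134.

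**Figure D4:**
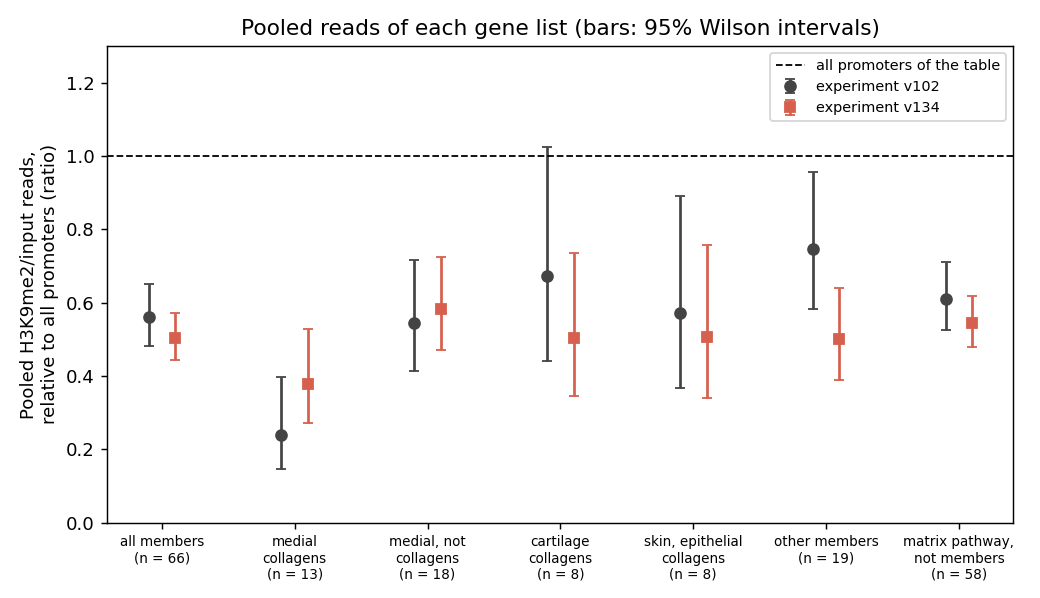
Pooled ChIP reads per input read of each gene list relative to all promoters of the table (y axis, ratio, dashed line at 1) in experiments v102 (grey circles) and v134 (red squares), with 95% Wilson intervals for counting error. Medial collagens sit lowest in both experiments (0.240 and 0.379), and the cartilage, skin and epithelial and other lists reach up to 0.747 in v102.

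How far the lists differ also depended on depth. With at least 20 reads in each input, 23 medial genes and 7 of the 16 collagens remained. Their medians were -0.71 and 0.12 against -0.24 for all promoters at that depth. Totals were here taken over the kept promoters alone, which moved every log2 ratio by the same amount. These medians therefore do not compare directly with those above. Relative to all promoters, the lists lay at -0.47 and 0.36, against -0.72 and -0.31 without the limit. With the limit, the median of the 7 collagens, though not each of them, was above that of all promoters, in place of below. Col4a3 and Col4a4, which had identical reads, were both among the 7.

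The experiments ordered the members less alike than they ordered all promoters. Across promoters, the log2 ratios of v102 and v134 had a Spearman correlation of 0.211 over the 66 members, 0.325 over the 31 medial genes and 0.689 over all 26354 promoters, given as descriptions. Fisher's exact test of v102 against v134, which compares libraries, passed Benjamini-Hochberg adjustment at 0 members, compared with 0.0911% of all promoters. Before adjustment 6 members (9.09%) had p under 0.05, close to the table's 9.18%. They were Fbln1, Fbln7, Col9a3, Col16a1, Ltbp4 and Col5a3, each with more ChIP reads in v102. Of the 66 members, 33 (50%) were below the table's median in both experiments and 7 (10.6%) above it in both, compared with 38.0% and 38.0% of all promoters.

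**Figure D5:**
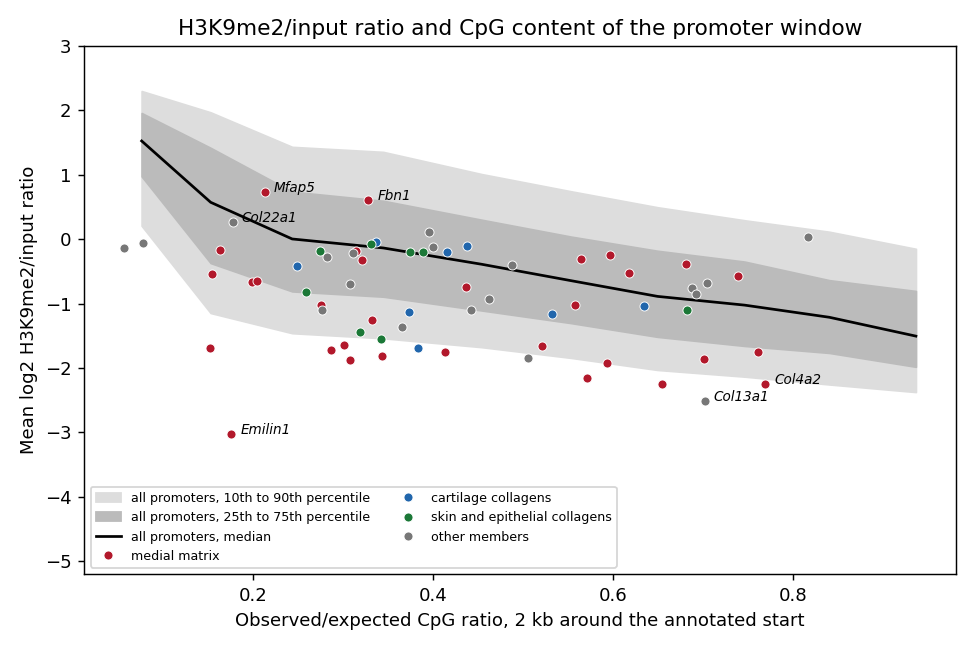
Mean log2 H3K9me2/input ratio of both experiments (y axis) against the observed/expected CpG ratio of the promoter window (x axis), with members as points (medial matrix red, cartilage blue, skin and epithelial green, other grey). The black line and grey bands give the median and the 25th to 75th and 10th to 90th percentiles of all promoters with a sequence, in bins of CpG ratio, and the members with a CpG ratio under 0.6 have a median of -0.68, against 0.02 for all such promoters.

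The ratio fell with CpG content over all promoters and less closely over the members. Across promoters, the Spearman correlation of the observed/expected CpG ratio with the mean log2 ratio was -0.520 over the table and -0.272 over the 66 members (-0.138 in v102 and -0.277 in v134), given as descriptions. CpG-rich promoters, which have an observed/expected CpG ratio of at least 0.6 and are typical of broadly active genes, were 14 of the 66 members (21.2%) and 32.1% of all promoters with a sequence. At CpG-rich promoters the median log2 ratio was -0.94 for the members and -1.04 for all promoters, though in v102 alone it was -1.24 and -0.88. Of the 14, 5 were below input and 0 above (35.7% and 0%), compared with 31.6% and 3.59% of CpG-rich promoters in the table. At CpG-poor promoters it was -0.68 for 52 members and 0.02 for all promoters. Of the 52, 10 were below input and 0 above (19.2% and 0%), compared with 10.9% and 24.1% of CpG-poor promoters in the table. This class is broad. Over all promoters the median log2 ratio was 1.53 at CpG ratios under 0.1 and -0.64 at 0.5 to 0.6. Members were not matched to the table within the class. Emilin1, Col6a1, Col6a2 and Col1a1, all below input, had observed/expected ratios of 0.153 to 0.307.

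GC content was related to the ratio in the same direction, and the values were also computed with its trend removed. Across promoters, the Spearman correlation of GC content with the mean log2 ratio was -0.447 over the 66 members and -0.549 over 22296 promoters, given as descriptions. With the GC trend removed within each experiment, the median log2 ratio was -0.91 for medial genes, -0.48 for the cartilage, skin and epithelial collagens, -0.18 for other members and -0.23 for all promoters. Col3a1, whose window is 36.1% GC, changed its rank: it was at the 43.4th percentile of all promoters before the correction and at the 4.46th after it. Decorin, at 39.6% GC, moved likewise from the 40.0th to the 6.90th percentile. Others rose, among them Ltbp2 from the 52.1st to the 79.6th percentile and Col9a2 from the 56.0th to the 78.3rd. Fbn1 and Mfap5 were at the 71.0th and 73.3rd percentiles after the correction, and Ltbp2, Col9a2, Col22a1 and Col7a1 then ranked above both.

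Other matrix-related genes, none of them members, were read from a list of 58 that mixes processing enzymes, further matrix proteins and receptors. Of these, 12 were below input (20.7%, against 17.0% of all promoters) and 2 above (3.45%, against 18.6%). With the experiment as a block 6 were below (10.3%, against 8.3%) and 1 above (1.72%, against 15.8%). Those below in both fits were Bmp1, which cleaves the C-propeptide of procollagen, with 0 ChIP reads over 21 and 26 input reads, the N-propeptide proteases Adamts2 and Adamts3, the prolyl hydroxylase subunit P4hb and the integrin receptor genes Itga8 and Itga10. The hydroxylase genes P4ha1 and Plod2, the collagen-binding Sparc, the collagen receptor Ddr2, Pcolce2 and Hapln1 were below input without the block and lost the call with it (edgeR adjusted p = 0.0633 to 0.115). Crtap, part of the prolyl 3-hydroxylation complex, had 13 and 13 ChIP reads over 18 and 39 input reads (edgeR adjusted p = 0.0284, or 0.0575 when the experiments were blocked). Mmrn1, a multimerin of platelets and endothelium related to the EMILINs, had 10 and 15 over 7 and 37 (edgeR adjusted p = 0.00705). The pooled ChIP reads per input read of the list were 0.611 and 0.544 of those of all promoters, near the 0.561 and 0.503 of the members.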

How the data were processed

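H3K9me2 ChIP and input libraries of 2 experiments (v102, v134), grouped by antibody from the labels, were compared. The authors trimmed reads with Trim Galore 0.4.2 and cutadapt 1.9.1, aligned them to GRCm38 with Bowtie2 2.2.7, and counted reads within 1 kb of each TSS with SeqMonk. The annotation release and handling of duplicate reads are not given in the sources used here. The deposited raw read counts of each library, their sums and the deposited ratio of those sums, ChIP over input, were used, and 0 columns of other samples were present. Promoters with few input reads had been removed by the authors, and the lowest summed input was 21.

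From the deposited counts, ChIP was compared with input by edgeR 4.0.16 (R 4.3.3; quasi-likelihood test, TMM, Benjamini-Hochberg over all 26354 rows, threshold 0.05, no block, after the study's single ratio over both experiments). SE is the log2 fold change divided by the square root of F. Wilson intervals are 95%, and a count of 0 was taken to allow 3 reads. Log2 ratios used a pseudocount of 1 and totals over the table, which are not library depths. Experiments were compared by two-sided Fisher's exact tests. The script was tested on simulated counts. Other software was DESeq2 1.42.0, matplotlib 3.10.9 and Python 3.11.15 with statsmodels 0.14.6, scipy 1.17.1, pandas 2.3.3 and numpy 2.4.6.

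The study states that each ChIP has its own input, so the number pairs libraries, and the correlation of the experiment differences of ChIP and input was 0.104 across promoters. The counts of no library were a copy of another's, since chi-square divided by its degrees of freedom was 1.52 between the ChIP libraries and 1.28 between the inputs. These values cannot show whether libraries came from separate material. Starts and base composition came from GENCODE vM21 and the RefSeq GRCm38.p6 genome, and all 66 members and 84.7% of all symbols matched 1 gene. Of the 48 members that also have a RefSeq promoter, 3 differed in start by over 1 kb. Windows of 11 members overlap another listed window. The members and lists were chosen with earlier results of these data known. Full statistics were given for a fixed list of 13 genes, the type IV collagen pairs and the 8 most changed called members in each direction, and other members and statistics were named after their values were seen. Bgn and Loxl2 were not analysed here.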

Additional observations from a re-analysis of the deposited data

How the results depend on the processing

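The count of members below input, 15, rested on the test. It was 6 (9.09%, against 8.3% of all promoters) with the experiment number as a replicate block, all among the 15. DESeq2 gave 0, against 0.11% of all promoters, with 61 adjusted p undefined and 8 members (12.1%, against 24.6%) at an unadjusted p under 0.05. The count was 4 (10.3%, against 12.0%) where 20 reads were required in each input, when 1 member, Mfap5, was above. It was 19 (28.8%, against 21.5%) with library totals in place of TMM, which shifted the median promoter by -0.14 on the log2 scale, and 13 (19.7%, against 16.2%) without mitochondrial promoters. No test could be made with 1 experiment left out. A pseudocount of 5 reads moved the median log2 ratio of all promoters from -0.31 to 0.34, that of the medial genes from -1.03 to 0.00089 and that of the cartilage, skin and epithelial collagens from -0.62 to 0.28. Relative to all promoters these lists were then at -0.34 and -0.06. Where 20 reads were required in each input, the lists had medians of -0.71 and 0.12, with totals over the kept promoters alone. Relative to all promoters at that depth they were at -0.47 and 0.36. Leaving out 1 experiment gave -1.46 to -1.03 for the medial genes, -0.82 to -0.56 for the 16 collagens, and 0.22 to 0.90 for their difference. Without Fbn1 and Mfap5, a setting chosen after seeing the data, the medial median was -1.26. For the 24 promoters with full statistics, the block took the call from 4, and DESeq2 left the adjusted p undefined at 23, all with the same direction, so it tested none of the calls. The cause of these shifts was not tested. Single promoters with 0 to 18 ChIP reads cannot show small differences, and gene starts may differ from those the authors used.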
